A study of Mus musculus with 21 samples.

Results

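This is a comparison of 4 pools of mouse muscle stem cells, 1 pool taken 28 days after a distant muscle injury and 3 pools taken 2.5 days after it. They were chosen by their sample titles and were measured on 6 of the 21 arrays of the series, which holds 12 pools in all. The 28-day pool was hybridised to 2 arrays, and the 2.5-day pools to 4 arrays because pool 1 was arrayed again. As a baseline, 3 pools from noninjured mice on 5 arrays were set beside them. Each pool held cells of 3 to 4 mice. All mice of these groups were Pax7CreER/+;Rosa26REYFP/+, of mixed C57BL6 strain and 3 to 5 months old, and had received tamoxifen at least 2 weeks before, so the noninjured mice carried the same Cre driver and tracer. Injured mice had barium chloride (BaCl2) injected into a hindlimb muscle, and the cells came from the opposite, uninjured hindlimb. These contralateral satellite cells are called CSC, and the quiescent satellite cells of noninjured mice QSC. YFP-positive cells were sorted by flow cytometry without culture, so a pool holds what the Pax7-CreER driver had marked together with whatever else passed the gate. From 100 ng of RNA per array, expression was read on Affymetrix Mouse Gene 1.0 ST arrays.

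Satellite cells lie between a muscle fibre and its basal lamina and stay out of the cell cycle in resting muscle. They are marked by the transcription factor Pax7, and Notch signalling, the calcitonin receptor and contact with the niche are known to hold them quiescent. The title of the series names an alert state of quiescence, GAlert, that an injury elsewhere in the body induces and that needs the growth-sensing kinase complex mTORC1. Alert cells are known for larger size, more mitochondrial activity and faster entry into the cycle. The comparison of 28 with 2.5 days asks which changes of the alert state had gone after 4 weeks and which were still there.

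Because the 28-day group is 1 pool, its own spread between mice is unknown. The model assumed that it varies like the QSC and the 2.5-day pools, which supplied all 4 residual degrees of freedom, and time after injury and pool cannot be told apart. The 2 arrays of the 28-day pool agreed closely (r = 0.996 over all tested genes), but they share its RNA and count as 1 sample. Across all tested genes the 28-day pool correlated at 0.986 with QSC pool 2 and at 0.965 with QSC pools 1 and 3, while the QSC pools correlated with each other at 0.966 to 0.972. Against the 2.5-day pools its correlations were 0.909 to 0.935. On the first principal component of the 7 wild-type pools (60.8% of the variance) it lay at -29.0, inside the QSC range of -31.0 to -13.8 and far from the 2.5-day pools at 28.7 to 39.0. The identity genes of satellite cells were expressed: of 8 (Pax7, Myf5, Calcr, Cdh15, Itga7, Vcam1, Chodl and Cxcr4), the lowest in the 28-day pool had a log2 signal of 10.20, above the 6.45 under which genes were left out. Markers of other cells were also read. In the 28-day pool the mean log2 signal of 12 macrophage markers was 6.84, below the QSC pools (6.96 to 7.60) and the 2.5-day pools (7.31 to 7.40). Its 12 mature fibre markers averaged 7.73 against 8.86 to 9.22 at 2.5 days and 7.69 to 8.67 in QSC. The Y-linked genes were read in every pool. Eif2s3y stood at 10.29 and 10.46 on the 28-day arrays against 9.21, 9.31 and 9.19 in the 2.5-day pools and 9.53, 10.14 and 9.46 in the QSC pools, so the 28-day pool and QSC pool 2 were the highest. The part of any difference between pools in sex or cell makeup in the results below was not tested. In such bulk samples, fewer cells of a type and less RNA per cell cannot be told apart.

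Most genes raised in alert cells passed as lower again at 28 days, while fewer of those lowered passed as higher. Of 13956 genes tested, 882 (6.32%) were lower and 287 (2.06%) higher at 28 than at 2.5 days (limma, Benjamini-Hochberg adjusted p under 0.05), 652 and 169 of them by more than 2-fold. For all 1169 of these genes both 28-day arrays lay on one side of all 4 arrays of 2.5 days, as they did for 7958 genes in all. For orientation, 1483 genes (10.6%) were higher and 1027 (7.36%) lower in the 2.5-day pools than in QSC, while no gene (0%) passed between the 28-day pool and QSC, where 637 had an unadjusted p under 0.05. These 3 comparisons share pools, so they are not independent. Among the 1169, 1022 had also differed between 2.5 days and QSC. Counts depended on the number of 2.5-day pools: without pool 1, 2 or 3 of them, 522, 491 and 392 genes were lower and 101, 76 and 44 higher. Without QSC pool 1, 2 or 3, whose spread enters the error, 490, 476 and 474 genes were higher, and 1037, 1307 and 934 lower. Of 2.5 days against QSC, leaving out any 1 of the 2.5-day pools left 837 to 880 genes higher and 344 to 421 lower, and leaving out QSC pool 1 left 626 lower.

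With small RNAs and predicted genes left out, the 10 largest falls were those of Eno3, Lgals3, H1f5, Plk1, Anln, Trp53i11, Mrpl34, Ttn, Rrm2 and Bub1. Eno3 encodes the muscle form of the glycolytic enzyme enolase. Its log2 signal was 8.65, 8.10 and 8.49 in the QSC pools, 12.05, 11.83 and 12.14 in the 2.5-day pools and 7.71 and 7.85 on the 28-day arrays. The 28-day pool was thus below every other wild-type pool, 18.7-fold under the 2.5-day mean (log2 difference -4.23 ± 0.24, where ± gives the SE, adjusted p = 0.000191 by limma). Lgals3, the galactose-binding lectin galectin-3, read 8.44, 8.13 and 8.47 in QSC, 11.03, 10.76 and 11.28 at 2.5 days and 7.68 and 7.61 at 28 days (10.4-fold lower, adjusted p = 0.000377), again without overlap. Trp53i11, a p53-induced gene, fell from 12.06, 11.28 and 11.58 to 8.68 and 8.36 (-3.12 ± 0.37, adjusted p = 0.00224) and lay below the QSC pools at 9.65, 8.80 and 8.92. Ttn, the giant sarcomere protein titin, fell by 2.90 on the log2 scale with an SE of 0.68, the widest of the 10. Its QSC pools were spread from 7.25 to 9.26, and it did not pass without any 1 of the 2.5-day pools or with no filter.

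With small RNAs and predicted genes left out, the 10 largest rises were those of Casp4, Casp12, Slc2a12, Aldh1a1, Birc3, Abca8a, Idi1, Gria1, Lin7a and Herc6. Lin7a and Idi1 did not pass without any 1 of the 2.5-day pools. Gria1 did not without pool 1 or 2, Aldh1a1 without pool 1 or 3 and Abca8a without pool 2. Lin7a and Gria1 also did not pass with arrays centred on their medians or with no filter. Casp4 encodes an inflammatory caspase that senses bacterial lipopolysaccharide. It read 10.30, 10.67 and 10.27 in QSC, 8.93 to 9.08 at 2.5 days and 10.74 and 10.90 at 28 days, a rise of 3.52-fold (1.82 ± 0.21, adjusted p = 0.00179). Its neighbour in the caspase family, Casp12, rose 3.39-fold (adjusted p = 0.00987). Both 28-day arrays of Casp4 were above all QSC pools, and those of Casp12 reached the upper end of the QSC range. Birc3, an inhibitor of apoptosis and a known NF-kB target, was at 11.36, 11.45 and 11.50 in QSC, 9.75, 9.82 and 9.77 at 2.5 days and 11.50 and 11.45 at 28 days (1.70 ± 0.17, adjusted p = 0.00134). It was back at the QSC level. Aldh1a1, a retinaldehyde dehydrogenase, read 9.58 and 9.71 at 28 days against 7.74, 8.17 and 7.93 at 2.5 days (adjusted p = 0.0239) and exceeded the QSC pools at 9.13, 9.20 and 8.21. The glucose transporter Slc2a12 and the interferon-inducible ubiquitin ligase Herc6 rose by 1.74 and 1.63 (adjusted p = 0.0132 and 0.0122), and the lipid transporter Abca8a, the glutamate receptor subunit Gria1 and the scaffold gene Lin7a by 1.69, 1.65 and 1.64 (adjusted p = 0.0163, 0.0411 and 0.0434).

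**Figure D1:**
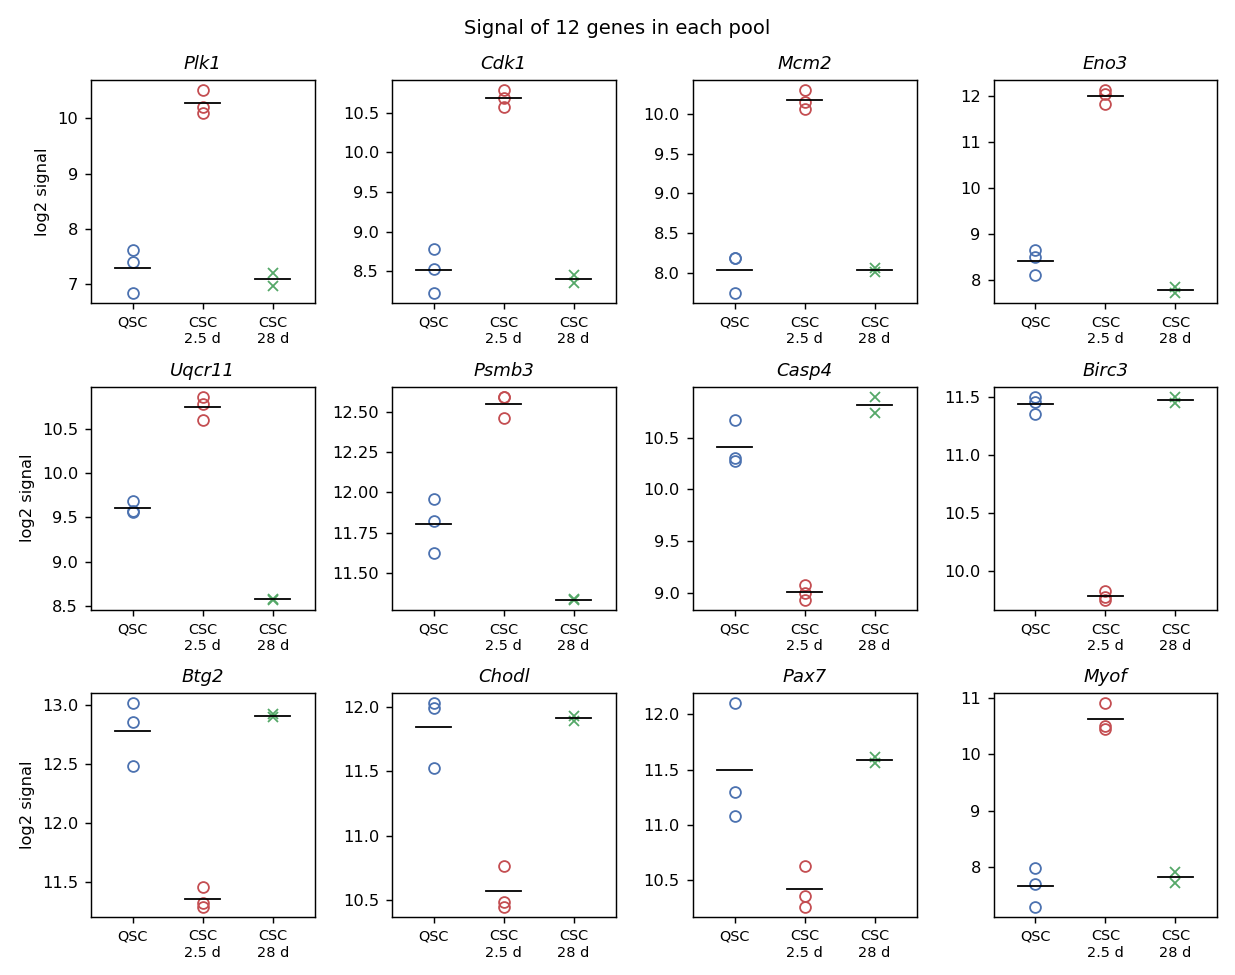
Log2 signal of 12 genes in the 3 QSC pools and 3 CSC pools of 2.5 days (circles, technical arrays averaged) and on the 2 arrays of the 28-day CSC pool (crosses). Bars are group means. Plk1, Cdk1, Mcm2 and Myof sit near QSC at 28 days, Uqcr11 and Psmb3 sit below all QSC pools, and Casp4, Birc3, Btg2, Chodl and Pax7 sit at QSC level or above.

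The cell cycle genes made the clearest block. All 38 tested genes of a mitosis list were lower at 28 than at 2.5 days, with a median log2 difference of -2.04 against 0.04 over all tested genes. Their median difference from QSC went from 1.76 at 2.5 days to -0.30 at 28 days, against -0.05 and -0.01 over all tested genes. Of 38 tested DNA replication genes, 31 fell and none rose (median -1.44). Their median relative to QSC went from 1.42 to -0.01. Leaving out any 1 of the 6 QSC and 2.5-day pools left 33 to 38 mitosis genes and 26 to 31 replication genes lower. Replication-dependent histone genes fell at 4 of 8 tested.

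In mitosis, Plk1 encodes the polo-like kinase that drives mitotic entry. It read 7.62, 6.84 and 7.39 in QSC, 10.52, 10.09 and 10.21 at 2.5 days and 7.21 and 6.96 at 28 days, 9.10-fold lower than at 2.5 days (-3.19 ± 0.30, adjusted p = 0.00109). Cdk1, the mitotic cyclin-dependent kinase, read 8.23, 8.52 and 8.78 in QSC, 10.69, 10.79 and 10.57 at 2.5 days and 8.36 and 8.45 at 28 days (-2.28 ± 0.23, adjusted p = 0.00138). Both 28-day arrays of Plk1 and Cdk1 lay inside the QSC range and apart from all 2.5-day pools. Its partner cyclin A2, Ccna2, read 9.19, 8.91 and 9.05 in QSC, 11.08, 11.03 and 11.20 at 2.5 days and 8.32 and 8.37 at 28 days (-2.76 ± 0.19, adjusted p = 0.000377). The proliferation antigen gene Mki67 read 9.18, 8.96 and 9.19 in QSC, 10.58, 10.57 and 10.37 at 2.5 days and 8.26 and 8.31 at 28 days (-2.22 ± 0.19, adjusted p = 0.000808). Both were below every QSC pool at 28 days. So were the cytokinesis scaffold Anln (-3.14 ± 0.17, adjusted p = 0.000191), the spindle motors Kif11 (-2.27 ± 0.17) and Kif20a (-2.67 ± 0.18), and the checkpoint kinase Bub1 (-2.81 ± 0.23, adjusted p = 0.000661). In the whole mitosis list, 26 of 38 genes had the 28-day pool below all QSC pools, against 19.0% of all tested genes, although no single one passed the test against QSC.

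To show what these genes share in sequence, their promoters were searched for the cell cycle homology region, TTTGAA with its variant form TTCGAA on either strand, and for CCAAT on either strand, which are known docking elements of the MuvB complex and of NF-Y. In RefSeq on GRCm38.p6 (250 bases before to 50 after the start), 31 of the 38 mitosis genes have a window, and 25 of them (80.6%) held the homology region, against 16.1% of the 11009 tested genes with a window and 19.2% of all 32841 windows. CCAAT was in 67.7% of the mitosis windows and 41.6% of those of tested genes (37.4% of all windows). Both were together in 64.5% and 7.68%. The 3 mitotic promoters printed here belong to kinase genes that fell and that hold both elements. Capitals mark the homology region and CCAAT, which reads ATTGG when it lies on the other strand, and each run reads 5′ to 3′ along the gene.
Plk1, chr7:122159185-122159484, plus strand: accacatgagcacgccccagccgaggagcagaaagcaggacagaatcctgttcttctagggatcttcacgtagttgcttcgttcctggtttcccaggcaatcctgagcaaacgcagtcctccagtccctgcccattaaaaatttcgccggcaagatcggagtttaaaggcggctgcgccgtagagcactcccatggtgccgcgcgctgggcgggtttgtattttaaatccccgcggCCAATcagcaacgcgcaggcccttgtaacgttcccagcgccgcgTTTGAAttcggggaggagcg
Cdk1, chr10:69352863-69353162, minus strand: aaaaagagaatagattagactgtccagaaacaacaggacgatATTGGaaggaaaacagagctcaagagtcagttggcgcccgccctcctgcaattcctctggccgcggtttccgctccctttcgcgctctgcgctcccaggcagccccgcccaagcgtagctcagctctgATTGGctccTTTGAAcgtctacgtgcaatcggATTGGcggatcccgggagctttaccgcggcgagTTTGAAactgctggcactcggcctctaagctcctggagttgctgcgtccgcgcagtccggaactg
Bub1, chr2:127831810-127832109, minus strand: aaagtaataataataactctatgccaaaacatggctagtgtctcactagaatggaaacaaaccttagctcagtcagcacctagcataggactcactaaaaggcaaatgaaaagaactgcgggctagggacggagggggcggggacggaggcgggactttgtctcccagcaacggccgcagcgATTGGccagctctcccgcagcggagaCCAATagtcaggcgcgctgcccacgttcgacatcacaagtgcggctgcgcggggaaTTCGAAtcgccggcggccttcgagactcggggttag
Plk1 holds 1 homology region and 1 CCAAT, Cdk1 holds 2 and 3, and Bub1 1 and 2. Outside the mitosis and replication lists, 821 tested genes hold both elements, and 9.87% of them were lower at 28 days. The share was 7.69% of all genes with the homology region, 6.92% of those with CCAAT and 5.87% of those without the homology region. A match is a run of letters and was not tested as a binding site.

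For DNA replication genes, the homology region was in 15.2% of 33 windows, while TTTCCCGC and the related TTTGGCGC on either strand, forms of the E2F site, were in 36.4%, against 3.22% of tested genes, 1.57% of all windows and 3.23% of mitosis windows. Outside the mitosis and replication lists, 9.38% of the tested genes with such a form were lower at 28 days. In the minus-strand window of Mcm6, a subunit of the replicative helicase, capitals mark 2 such matches and 2 CCAAT boxes.
Mcm6, chr1:128359656-128359955, minus strand: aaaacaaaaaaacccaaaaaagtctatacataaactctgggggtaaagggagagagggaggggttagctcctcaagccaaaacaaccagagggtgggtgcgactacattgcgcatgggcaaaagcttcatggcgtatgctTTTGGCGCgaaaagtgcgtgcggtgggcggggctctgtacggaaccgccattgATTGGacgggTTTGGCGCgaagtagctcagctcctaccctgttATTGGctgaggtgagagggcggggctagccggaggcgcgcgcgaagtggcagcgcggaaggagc
Mcm6, chosen for this window after its values were seen, read 7.76, 7.62 and 8.17 in QSC, 10.02, 9.83 and 9.84 at 2.5 days and 7.80 and 7.94 at 28 days (-2.03 ± 0.23, adjusted p = 0.00191). Another helicase subunit, Mcm2, read 8.19, 7.74 and 8.18 in QSC, 10.30, 10.06 and 10.15 at 2.5 days and 8.06 and 8.01 at 28 days (-2.13 ± 0.22, adjusted p = 0.00143). Both had returned into the QSC range. Rrm2, the ribonucleotide reductase subunit that supplies deoxynucleotides, read 9.56, 7.98 and 8.86 in QSC, 10.98, 11.12 and 11.37 at 2.5 days and 8.32 and 8.33 at 28 days (-2.84 ± 0.47, adjusted p = 0.00917). The S-phase cyclin Ccne2 (-2.80 ± 0.28), the clamp loader subunit Rfc5 (-1.92 ± 0.20) and the chromatin assembly factor Chaf1b (-1.92 ± 0.21) also fell (adjusted p = 0.00138, 0.00143 and 0.00161).

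In the list of G1 cyclins, kinases, inhibitors, E2F and retinoblastoma proteins, 7 of 23 tested genes fell (median -0.35). The 1 that rose was E2f5 (1.26 ± 0.22, adjusted p = 0.0124), named here after its values were seen. Cdk6, a G1 kinase, read 8.47, 8.29 and 8.53 in QSC, 11.09, 10.59 and 10.51 at 2.5 days and 8.43 and 8.55 at 28 days (-2.25 ± 0.25, adjusted p = 0.00162). E2f1 and E2f2, activators of replication genes, fell by 1.70 and 1.95, and the retinoblastoma relative Rbl1 by 1.53 (adjusted p = 0.00797, 0.00497 and 0.00247). Cyclin D1, Ccnd1, did not pass (-0.35 ± 0.27, interval -0.97 to 0.27, adjusted p = 0.490), and neither did the inhibitors Cdkn1b, p27 (0.24 ± 0.19, adjusted p = 0.491), and Cdkn1c, p57 (-0.76 ± 0.47, adjusted p = 0.370). The histone list ended under QSC, at a median of -0.55. The linker histone gene H1f5 read 8.52, 8.20 and 9.04 in QSC, 10.92, 11.13 and 11.45 at 2.5 days and 7.91 and 7.85 at 28 days (9.75-fold lower than at 2.5 days, adjusted p = 0.00118), and H1f1, H2bc3 and H4c4 fell by 2.45, 2.39 and 1.14. For 6 of the 8 histone genes the 28-day pool lay below all QSC pools, against 19.0% of all tested genes. Array probes for these closely related genes can share signal.

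Genes for energy supply and protein turnover were the other large group that fell. Of 73 nuclear genes of the respiratory complexes, 41 were lower at 28 than at 2.5 days and none higher (median -0.89). Of 75 mitochondrial ribosomal protein genes, 39 were lower and none higher (median -0.83). Of 31 proteasome subunits, 15 were lower and none higher (median -0.78), and of 13 glycolytic genes, 7 and none (median -1.05). The tricarboxylic acid cycle list had 4 of 17 lower (median -0.41). Fewer passed when a 2.5-day pool was left out. Without pool 2 or 3, 25 and 19 respiratory genes were lower. Without pool 1, 2 or 3, 23, 17 and 13 mitochondrial ribosomal and 7, 4 and 2 proteasome genes were, and without pool 3, 2 of the tricarboxylic acid cycle list.

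Relative to QSC the median of the respiratory genes went from 0.56 at 2.5 days to -0.37 at 28 days, and in 53 of 73 the 28-day pool lay below all QSC pools, against 19.0% of all tested genes. None of the 73 passed the test against QSC. Uqcr11, a small subunit of complex III, read 9.56, 9.57 and 9.69 in QSC, 10.86, 10.60 and 10.78 at 2.5 days and 8.58 and 8.57 at 28 days (-2.18 ± 0.18, adjusted p = 0.000769). The 3 groups did not overlap, and the 28-day arrays were about as far under QSC as the 2.5-day pools were above it. The complex I subunit Ndufs8 read 10.67, 10.37 and 10.17 in QSC, 11.14, 10.84 and 11.16 at 2.5 days and 9.32 and 9.19 at 28 days (-1.79 ± 0.23, adjusted p = 0.00324), and the cytochrome oxidase subunit Cox6b1 10.72, 10.63 and 10.92 in QSC, 11.70, 11.53 and 11.68 at 2.5 days and 10.06 and 9.97 at 28 days (-1.62 ± 0.19, adjusted p = 0.00200). The ATP synthase subunit Atp5j2 fell by 1.61 (adjusted p = 0.00379). Cytochrome c itself, Cycs, read 11.71, 12.16 and 11.92 in QSC, 12.37, 12.50 and 12.62 at 2.5 days and 11.98 and 12.21 at 28 days and did not pass (-0.40 ± 0.21, adjusted p = 0.296).

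Mrpl34, Mrpl42, Mrpl11 and Mrpl18, proteins of the large mitochondrial ribosomal subunit, fell by 2.90, 1.83, 1.80 and 1.68 (adjusted p = 0.00424, 0.00196, 0.00291 and 0.00275). As a list they ended nearer to QSC than the respiratory genes, at a median of -0.12. Proteasome genes ended at -0.03. Psmb3, a proteasome core subunit, read 11.82, 11.96 and 11.63 in QSC, 12.59, 12.46 and 12.59 at 2.5 days and 11.34 and 11.34 at 28 days (-1.21 ± 0.19, adjusted p = 0.00714), under the QSC pools. Psmb5, Psmc3 and Psma2 fell by 1.44, 1.21 and 1.03. In glycolysis, Pgk1 and Tpi1 fell by 1.87 and 1.75, and lactate dehydrogenase A, Ldha, read 12.25, 12.16 and 12.26 in QSC, 12.75, 12.78 and 12.85 at 2.5 days and 11.72 and 11.73 at 28 days (-1.07 ± 0.17, adjusted p = 0.00713). The cycle enzymes Idh3a, Dlat, Mdh2 and Suclg1 fell by 1.14, 1.06, 1.19 and 1.09 (adjusted p = 0.0122, 0.0132, 0.0147 and 0.0244).

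Biosynthetic lists had fewer calls. Ribosome biogenesis genes fell at 3 of 37, namely Bop1, Nhp2 and Wdr12, a share near the 6.32% of all tested genes, and none did without any 1 of the 2.5-day pools, while 8 did without QSC pool 2. The list's median relative to QSC went from 0.52 to 0.12. Of 26 aminoacyl-tRNA synthetases and ATF4 targets, 5 fell (3 without any 1 of the 2.5-day pools). The serine synthesis enzymes Phgdh, Psat1 and Psph fell by 1.72, 1.17 and 0.78 (adjusted p = 0.00469, 0.00767 and 0.0276), and so did Shmt2, which uses serine in mitochondria (-1.51 ± 0.34, named after its values were seen). Asns, asparagine synthetase, read 8.47, 9.04 and 9.20 in QSC, 11.16, 10.81 and 10.86 at 2.5 days and 9.45 and 9.47 at 28 days (-1.48 ± 0.28, adjusted p = 0.0156). Its 28-day arrays stayed above all QSC pools. Among NRF2 targets and pentose phosphate enzymes 5 of 17 fell, and 3 without 2.5-day pool 3. The aldo-keto reductase Akr1b8 read 7.27, 7.05 and 7.08 in QSC, 9.86, 9.73 and 9.84 at 2.5 days and 7.24 and 7.48 at 28 days (-2.45 ± 0.18, adjusted p = 0.000377), and Pgd, Gsr and Me1 fell by 1.93, 1.92 and 1.03. Tkt, transketolase, named after its values were seen, fell by 0.73.

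Among mTORC1 components and regulators 1 of 25 tested genes passed, Lamtor4, a subunit of the lysosomal Ragulator that recruits mTORC1 (-0.95 ± 0.21, adjusted p = 0.0288). It did not pass without any 1 of the 2.5-day pools (adjusted p = 0.0622 to 0.0759), and 3 genes were lower without QSC pool 1 or 2. Rptor, the defining subunit of mTORC1, read 9.58, 8.91 and 9.29 in QSC, 9.84, 9.47 and 9.43 at 2.5 days and 9.11 and 9.09 at 28 days (-0.48 ± 0.27, adjusted p = 0.335). Its inhibitor Tsc1 read 8.66, 8.34 and 8.69 in QSC, 9.08, 8.66 and 8.58 at 2.5 days and 8.80 and 8.81 at 28 days (0.03 ± 0.24, interval -0.51 to 0.58), a difference whose sign turned under 3 other settings. Neither Rptor nor Tsc1 passed. The 1 call among 25 genes was no more than the 6.32% of all tested genes that were lower. Transcript levels say nothing of the activity of the complex.

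**Figure D2:**
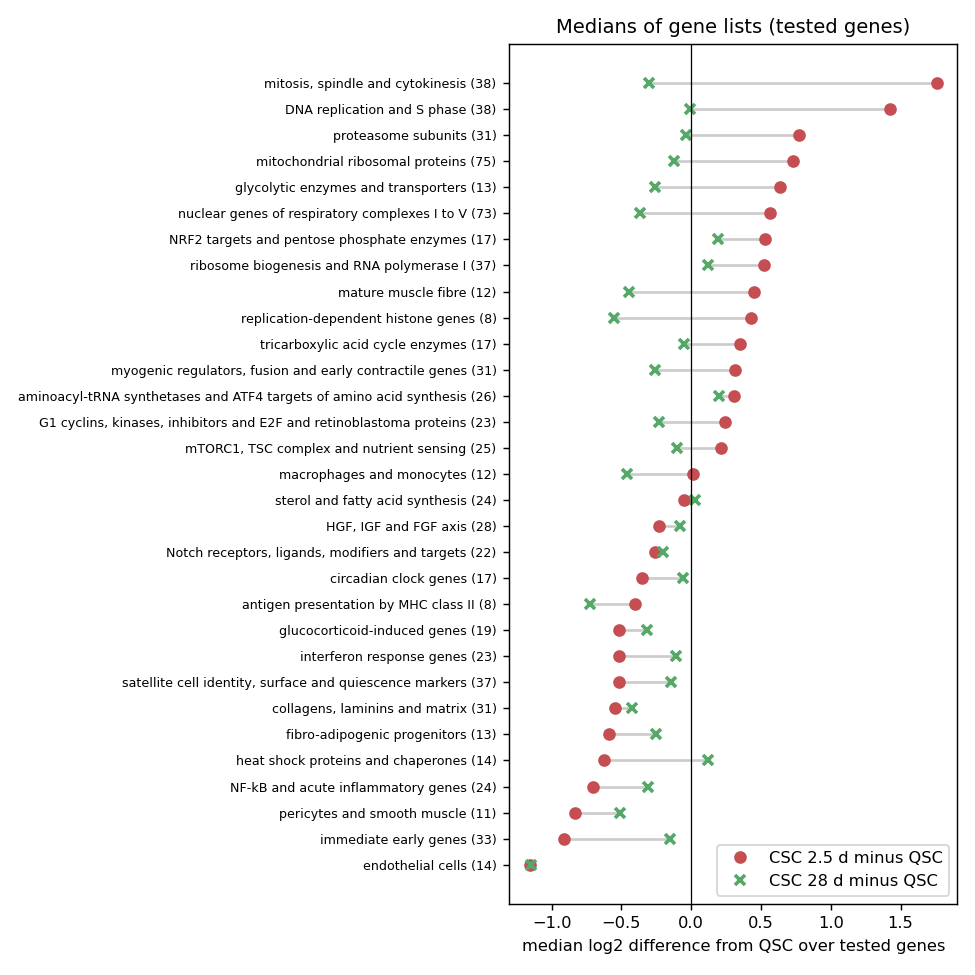
Median log2 difference from QSC over the tested genes of each list with 8 or more of them (number in parentheses), at 2.5 days (circles) and at 28 days (crosses). Mitosis genes go from 1.76 to -0.30 and immediate early genes from -0.91 to -0.15, while endothelial markers stay at -1.16 and -1.15.

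Early response and stress genes, low at 2.5 days, were among those that rose at 28 days. Of 33 immediate early genes, 10 rose and none fell (median 0.57), and relative to QSC their median went from -0.91 to -0.15. Without 2.5-day pool 1, 2 or 3, 6, 3 and 2 rose. Btg2, an antiproliferative immediate early gene, read 13.01, 12.85 and 12.48 in QSC, 11.46, 11.32 and 11.29 at 2.5 days and 12.92 and 12.89 at 28 days (1.55 ± 0.22, adjusted p = 0.00504). The nuclear receptor Nr4a1 read 13.36, 12.75 and 12.44 in QSC, 11.41, 11.39 and 11.31 at 2.5 days and 12.98 and 12.97 at 28 days (1.60 ± 0.30, adjusted p = 0.0151). For both the 28-day arrays lay inside the QSC range and clear of the 2.5-day pools. The mRNA-decay factor Zfp36 and the zinc finger factor Egr2 rose by 1.39 and 1.50 (adjusted p = 0.00403 and 0.0158). Such genes are known to be induced while muscle is dissociated, and how long each pool was processed was not given, so the part of cell isolation in these levels was not tested.

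NF-kB and acute inflammatory genes rose at 6 of 24 (median 0.43) and at 3, 3 and 2 without 2.5-day pool 1, 2 or 3. Beside Birc3, these included Nfkbiz, a nuclear regulator of NF-kB (1.17 ± 0.19, adjusted p = 0.00877), Cebpd, a transcription factor of the acute phase (0.93 ± 0.19, adjusted p = 0.0223), and the chemokine gene Ccl2. Ccl2 read 11.02, 11.07 and 11.31 in QSC, 9.72, 9.90 and 9.92 at 2.5 days and 10.78 and 10.74 at 28 days (0.91 ± 0.19, adjusted p = 0.0226). It had risen but stayed below every QSC pool. Neither Ccl2 nor Cebpd passed without any 1 of the 2.5-day pools. Relative to QSC the list's median went from -0.70 at 2.5 days to -0.31 at 28 days. In 13 of its 24 genes the 28-day pool lay below all QSC pools, against 19.0% of all tested genes. Il6, another member, stood at -1.31 relative to QSC at 28 days. Interferon response genes rose at 2 of 23, Irf1 (1.01 ± 0.21, adjusted p = 0.0215) and the RNA sensor Ifih1 (0.84 ± 0.17, adjusted p = 0.0203), and the median of the list was 0.35. Irf1 did not pass when its probesets were averaged (log2 0.55, adjusted p = 0.107) or without 2.5-day pool 1 or 3 (adjusted p = 0.0607 and 0.0756). Ifih1 did not pass without any 1 of the 2.5-day pools (adjusted p up to 0.0756), so the count of 2 became 0, 1 and 0. The sensor Ddx58 (0.85 ± 0.25, adjusted p = 0.0757) and the antiviral gene Rsad2 (-0.66 ± 0.20, adjusted p = 0.0821) did not pass.

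Heat shock genes rose at 4 of 14 (median 0.71), and at 2 without 2.5-day pool 2 or 3. Dnajb1, an HSP40 co-chaperone, read 13.02, 13.09 and 12.77 in QSC, 11.56, 11.69 and 11.90 at 2.5 days and 13.06 and 13.04 at 28 days (1.33 ± 0.21, adjusted p = 0.00713), and Hsph1, Dnajb4 and Bag3 rose by 1.19, 1.28 and 1.10. Circadian clock genes rose at 3 of 17, at 1 without 2.5-day pool 1 and at none without pool 3. These were the repressors Nfil3 (1.00 ± 0.19, adjusted p = 0.0156) and Bhlhe40 (1.47 ± 0.32, adjusted p = 0.0244) and the receptor Rora (1.06 ± 0.22, adjusted p = 0.0234), while the repressor Ciart fell (-0.86 ± 0.22, adjusted p = 0.0461), though not without any 1 of the 2.5-day pools. The hour of sampling was not given for any pool. In a list of glucocorticoid-induced genes the median relative to QSC went from -0.52 to -0.31. The 28-day pool lay below all QSC pools in 10 of its 19 genes, against 19.0% of all tested genes. Glucocorticoid-induced genes rose at 2 of 19, Cebpd and Nfil3, both also on a list above, and fell at 1, the lipase inhibitor Angptl4 (-0.82 ± 0.21, adjusted p = 0.0488). Without 2.5-day pool 1, 2 or 3 the rises were 1, 1 and 0, and Angptl4 did not pass (adjusted p = 0.0857 to 0.136), nor did it with no filter. Zbtb16, a transcription factor induced by glucocorticoids, read 11.63, 10.73 and 11.12 in QSC, 9.78, 8.77 and 9.47 at 2.5 days and 10.53 and 10.54 at 28 days and did not pass (1.20 ± 0.41, adjusted p = 0.109).

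Satellite cell identity and quiescence genes rose at 4 of 37 and fell at none (median 0.26). Their median relative to QSC went from -0.52 to -0.15. The count was 2 without 2.5-day pool 3 and 7 without QSC pool 1 or 3. Chodl, a lectin of the satellite cell surface, read 12.03, 11.99 and 11.52 in QSC, 10.45, 10.49 and 10.77 at 2.5 days and 11.89 and 11.93 at 28 days (1.35 ± 0.24, adjusted p = 0.0127). The angiopoietin receptor Tek, dystrophin (Dmd) and Pax3 rose by 1.23, 1.30 and 0.84 (adjusted p = 0.00961, 0.0179 and 0.0231). Pax7 itself read 12.10, 11.30 and 11.09 in QSC, 10.63, 10.36 and 10.27 at 2.5 days and 11.61 and 11.56 at 28 days. All 28-day arrays were above all 2.5-day pools, but the difference did not pass (1.17 ± 0.35, interval 0.38 to 1.95, adjusted p = 0.0743). The calcitonin receptor gene Calcr was similar in size and did not pass (1.15 ± 0.32, adjusted p = 0.0604), and neither did Myf5 (0.72 ± 0.34, adjusted p = 0.240), Cd34 (0.58 ± 0.32, adjusted p = 0.319) or the FGF antagonist Spry1 (0.56 ± 0.27, adjusted p = 0.255).

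In the Notch list 1 of 22 genes passed: Rbpj, the DNA-binding partner of all Notch receptors, rose (0.87 ± 0.20, adjusted p = 0.0288), though not when its probesets were averaged (log2 0.47, adjusted p = 0.170), when arrays were centred (adjusted p = 0.0540) or without any 1 of the 2.5-day pools (adjusted p = 0.0728 to 0.0935). Without QSC pool 1 or 3, 2 genes of the list rose. Over all tested genes 2.06% were higher at 28 than at 2.5 days. The target genes Hes1 (1.04 ± 0.38, adjusted p = 0.136) and Heyl (0.62 ± 0.38, adjusted p = 0.378) did not pass, nor did the ligands Dll1 (-1.16 ± 0.35, adjusted p = 0.0734) and Jag2 (-0.74 ± 0.22, adjusted p = 0.0767), whose estimates were negative. In the HGF, IGF and FGF list, 2 of 28 rose, Igf1 (1.13 ± 0.27, adjusted p = 0.0380) and Plau, the urokinase that can activate HGF (1.03 ± 0.24, adjusted p = 0.0321). Neither passed without any 1 of the 2.5-day pools (adjusted p = 0.0738 to 0.111), and Igf1 did not with centred arrays or with no filter. The HGF receptor gene Met read 9.93 to 10.11 in QSC, 10.94, 10.63 and 10.84 at 2.5 days and 10.41 and 10.42 at 28 days and did not pass (-0.39 ± 0.19, adjusted p = 0.254). Its 28-day arrays lay between the other groups and overlapped neither. Vegfa did not pass (0.24 ± 0.21, adjusted p = 0.556), nor did Insr (0.62 ± 0.22, adjusted p = 0.128) or Igfbp3 (-1.40 ± 0.41, adjusted p = 0.0684).

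Myogenic genes fell at 7 of 31 and rose at none (median -0.62), and 12 fell without QSC pool 2. Myof, the membrane repair and fusion protein myoferlin, read 7.98, 7.30 and 7.71 in QSC, 10.90, 10.44 and 10.51 at 2.5 days and 7.73 and 7.91 at 28 days (-2.80 ± 0.28, adjusted p = 0.00138), a return into the QSC range. N-cadherin (Cdh2), embryonic myosin (Myh3) and slow troponin I (Tnni1) fell by 2.22, 2.50 and 1.75 (adjusted p = 0.00621, 0.00285 and 0.00399). Myod1, the determination factor, did not pass (-0.18 ± 0.34, adjusted p = 0.796), and Myog, the differentiation factor, with QSC pools spread from 8.35 to 10.33, did not either (-1.86 ± 0.62, adjusted p = 0.104). Beside this, 4 of 12 mature fibre markers fell, Eno3, Ttn, Actn3 (-1.35 ± 0.34) and Tnnt3 (-1.38 ± 0.34), and the estimates of all 12 were negative. That count was 1, 1 and 2 without 2.5-day pool 1, 2 or 3, and 8 without QSC pool 2. The part of fibre RNA carried over in the sort in these falls was not tested.

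Matrix and sterol genes were mixed. Of 31 collagen, laminin and matrix genes, 2 fell, a share near the 6.32% of all tested genes: versican (Vcan), which read 8.49, 9.05 and 8.98 in QSC, 10.38, 10.63 and 10.55 at 2.5 days and 8.72 and 8.87 at 28 days (-1.73 ± 0.24, adjusted p = 0.00427), and the protease inhibitor Timp1 (-1.23 ± 0.22, adjusted p = 0.0127). Both were back in the QSC range. Timp1 did not pass without 2.5-day pool 3 (adjusted p = 0.0506), and 5 genes of the list fell without QSC pool 2. The list as a whole stayed low, with a median relative to QSC of -0.55 at 2.5 days and -0.43 at 28 days. Lama2, the laminin chain of the muscle basal lamina, did not pass (0.59 ± 0.19, adjusted p = 0.0921). In sterol and fatty acid synthesis, 2 of 24 rose, Idi1 and Cyp51, enzymes of the mevalonate and lanosterol steps (1.67 ± 0.39 and 1.52 ± 0.39, adjusted p = 0.0315 and 0.0454). Neither passed without any 1 of the 2.5-day pools (adjusted p = 0.0550 to 0.119) or with no filter, while 4 and 6 genes of the list were higher without QSC pool 2 and 3. Idi1 read 10.53, 10.71 and 9.62 in QSC, 9.25, 9.78 and 9.51 at 2.5 days and 11.14 and 11.22 at 28 days, so that the 28-day arrays were the highest of all, while QSC pool 3 overlapped the 2.5-day pools. The median of this list was near 0 (0.03) and its sign turned when arrays were centred on their medians (-0.05) and without 2.5-day pool 3 (-0.01). Msmo1 (1.48 ± 0.40, adjusted p = 0.0551) and Insig1 (1.16 ± 0.32, adjusted p = 0.0563) did not pass.

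To say which changes were lost and which stayed, alert genes were defined as those that passed between 2.5 days and QSC with a log2 difference of at least 1 either way. There were 684, 480 higher and 204 lower at 2.5 days. Of the 480 that had been higher, 436 (90.8%) fell again at 28 days, passing the test between 28 and 2.5 days. Of the 204 that had been lower, 80 (39.2%) rose again. The 516 together were 335 without 2.5-day pool 3. The share of the change kept, which is the 28-day difference from QSC divided by the 2.5-day one, had a median of -9.16% for the genes that had been higher (quartiles -23.1% and 3.08%, highest 58.7%). For those that had been lower it had a median of 12.9% (upper quartile 54.0%, highest 133%). Their 28 minus 2.5-day differences were smaller than those of the raised genes (medians 1.00 and -1.47), and fewer passed. In 73 of these 204 genes the share was under 0%, and in 50 more it was up to 25%. Both terms of this share use the same QSC pools, and the genes were picked for a large denominator, so no test was made of it. The 2.5-day pools used to pick the genes also enter the test between 28 and 2.5 days. That favours a return, so the 90.8% and 39.2% are descriptions only.

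For the 480 genes that had been higher, the 28-day pool lay below all QSC pools in 171, within their range in 257 and above it in 52. For the 204 that had been lower it was below all QSC pools in 73, within in 114 and above in 17. Over all tested genes the shares were 19.0%, 61.2% and 19.8%. Of the 436 that fell again, 39 were still above all QSC pools at 28 days. A share over 75% without passing between 28 and 2.5 days was set as the mark of a kept change. No gene that had been higher met it, and 31 that had been lower did. Just inside that limit were Aqp7 and Il6 (75.1% and 75.3%), and just outside it Adgrl4 (73.7%). The count was 74 without QSC pool 2, of which 29 were among the 31, and 27 to 32 without any other single pool.

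**Figure D3:**
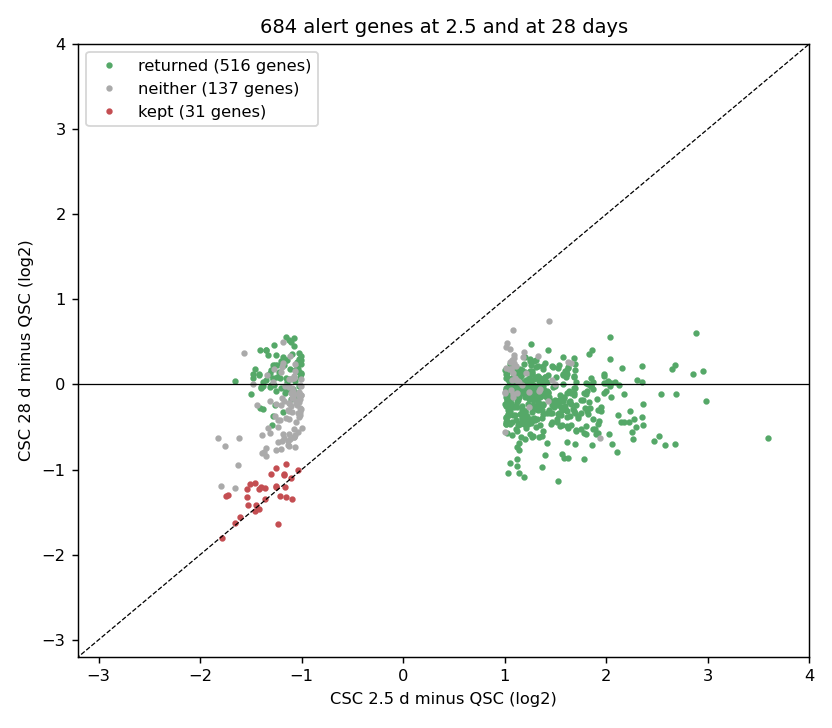
Log2 difference from QSC at 2.5 days (horizontal) and at 28 days (vertical) for the 684 alert genes. The dashed line marks equal differences and the solid line the QSC mean, which both axes share. Genes that had been higher lie around the solid line, and the 31 kept genes lie along the dashed line at the lower left.

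**Figure D4:**
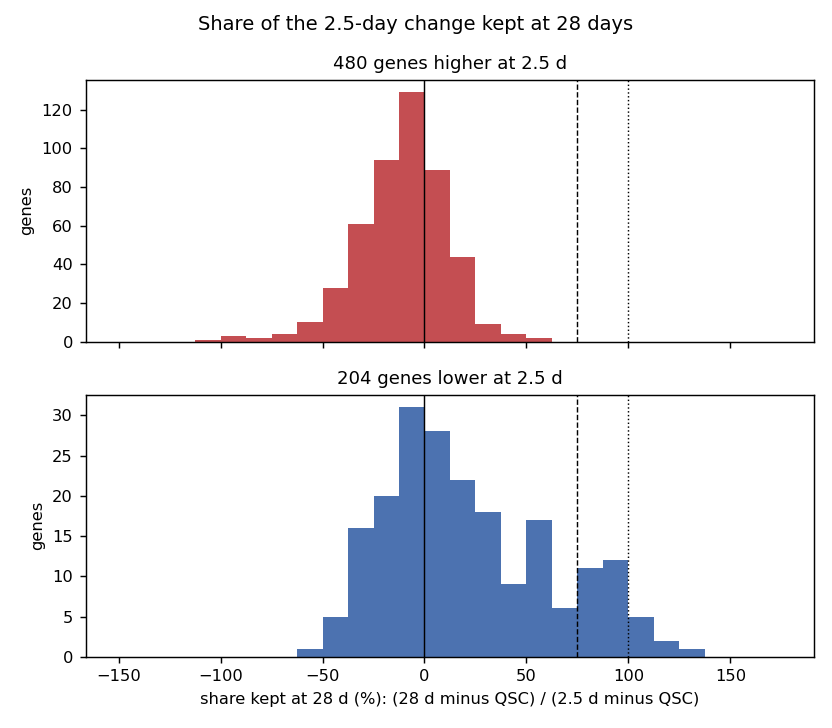
Number of alert genes by the share of the 2.5-day change kept at 28 days, in percent, for 480 genes higher (top) and 204 genes lower (bottom) at 2.5 days. Lines mark 0%, the 75% limit (dashed) and 100% (dotted). The upper distribution centres at -9.16% and ends at 58.7%. The lower one runs on to 133%, with 31 genes beyond 75%.

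The 31 kept genes included markers of blood vessels. By the marker lists, 6 are endothelial markers (Cdh5, Emcn, Esam, Fabp4, Flt1 and Pecam1), 1 a pericyte marker (Rgs5), and 24 are on none of them. Cdh5 encodes VE-cadherin, the adhesion molecule of endothelial junctions. It read 10.84, 10.23 and 10.99 in QSC, 8.59, 9.44 and 9.06 at 2.5 days and 9.01 and 9.10 at 28 days. Both later groups were under all QSC pools and overlapped each other, and the 28-day minus 2.5-day difference was 0.02 ± 0.36 with a 95% interval of -0.78 to 0.83. Emcn, the endothelial sialoglycoprotein endomucin, read 9.55, 9.72 and 9.85 in QSC, 7.52, 8.24 and 7.99 at 2.5 days and 7.96 and 7.85 at 28 days (interval -0.62 to 0.60). Pecam1, Flt1 and Esam are named here after their values were seen. Pecam1, the platelet and endothelial adhesion molecule CD31, read 9.32, 8.95 and 9.57 in QSC, 7.72, 8.15 and 7.89 at 2.5 days and 7.92 and 7.96 at 28 days (interval -0.58 to 0.62). The same held for the fatty acid binding protein Fabp4 (-1.46 at 28 days relative to QSC, interval of 28 minus 2.5 days -0.65 to 0.58), the VEGF receptor Flt1 (-1.21, -0.65 to 0.57) and the junction protein Esam (-1.34, -1.01 to 0.51). Rgs5, a G-protein regulator of pericytes, stood at -1.42 (-0.68 to 0.90).

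All 14 endothelial markers were tested. Their mean log2 signal was 8.93 to 9.58 in the QSC pools, 7.89 to 8.32 in the 2.5-day pools and 8.22 in the 28-day pool. In 13 of 14 the 28-day pool lay below all QSC pools, against 19.0% of all tested genes. The exception was Tek, which satellite cells also express, and which was the only one of the 14 to pass between 28 and 2.5 days. Median differences between 28 and 2.5 days were 0.02 for the endothelial, 0.06 for the pericyte and 0.06 for the fibro-adipogenic list, each with a sign that turned when arrays were centred on their medians (-0.06, -0.02 and -0.02) and, for the endothelial and fibro-adipogenic lists, without 2.5-day pool 1 (-0.11 and -0.05). None of 11 pericyte, 13 fibro-adipogenic, 12 macrophage, 3 Schwann and 3 lymphocyte or red cell markers passed. By limma at an unadjusted p under 0.05, 8 of these 42 did, as did 3378 of all 13956 genes. The macrophage list had a median relative to QSC of 0.01 at 2.5 days and -0.46 at 28 days, with all 12 estimates of 28 minus 2.5 days negative. Lyz2, lysozyme, read 9.44, 7.89 and 9.46 in QSC, 9.21, 9.57 and 9.87 at 2.5 days and 7.49 and 7.56 at 28 days (-2.03 ± 0.54, adjusted p = 0.0532). QSC pool 2 and the 28-day pool were the low ones. Whether vessel markers follow the share of such cells in a sort or their level within the sorted cells was not tested.

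Other kept genes were on none of the marker lists. The lists are short, so absence from them does not set a gene apart from vessel cells. Adgrf5, an adhesion GPCR, read 9.87, 9.27 and 10.05 in QSC, 7.71, 8.46 and 8.20 at 2.5 days and 8.04 and 8.30 at 28 days (interval of the difference -0.73 to 0.82). Aspn, the matrix proteoglycan asporin, read 8.34, 8.44 and 8.53 in QSC, 6.51, 7.14 and 7.28 at 2.5 days and 6.79 and 7.12 at 28 days (interval -0.66 to 0.61). The B-cell chemokine gene Cxcl13 read 7.91, 8.58 and 8.89 in QSC, 7.80, 6.57 and 7.31 at 2.5 days and 6.80 and 6.84 at 28 days, and its interval was wide (-1.45 to 0.64). Slfn5, a Schlafen family gene, stood at -1.42 relative to QSC (interval of 28 minus 2.5 days -0.83 to 0.90). Across the 31, the 28-day pool was 0.94 to 1.80 below QSC on the log2 scale and below all QSC pools each time. None of the 31 passed the test against QSC, with adjusted p = 0.259 to 0.999. All 31 had an unadjusted p under 0.05 there, but they had been picked for a low 28-day level.

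**Figure D5:**
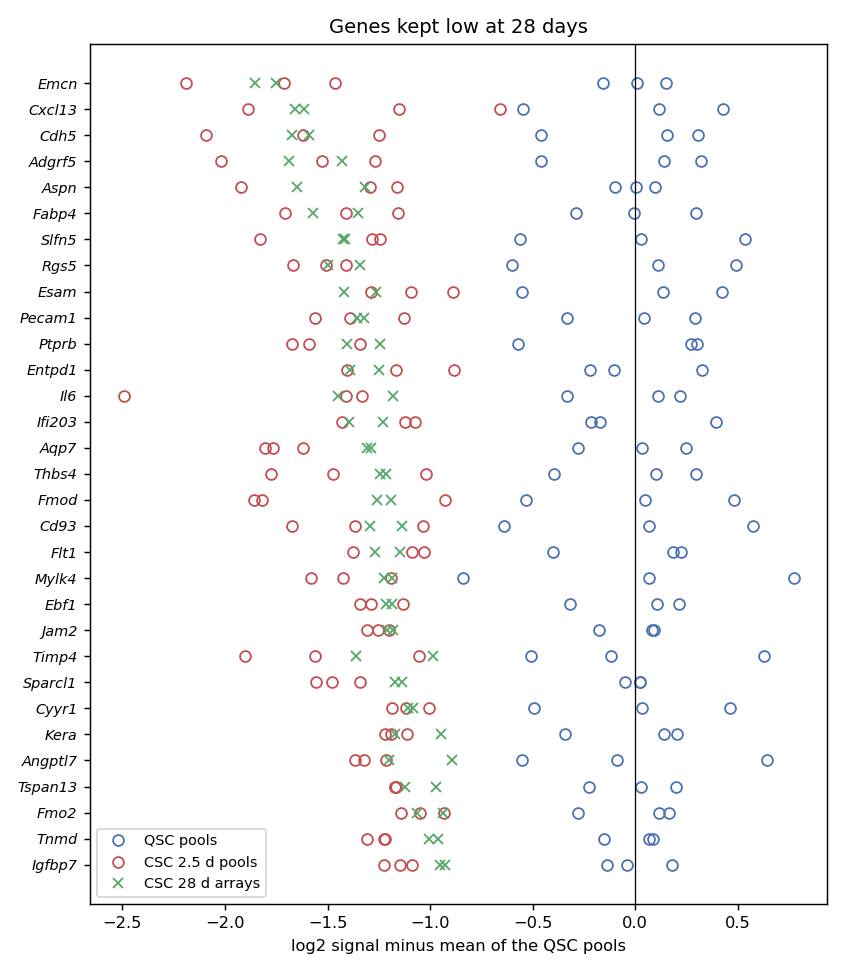
Log2 signal of the 31 kept genes relative to the mean of the QSC pools, for each QSC pool and 2.5-day CSC pool (circles) and each 28-day array (crosses). At 28 days the genes lie between 0.94 and 1.80 below the QSC mean.

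A smaller set differed at 28 days with a log2 difference from QSC under 0.5 at 2.5 days, a limit of size and not of the test. For 143 genes that passed between 28 and 2.5 days, the 2.5-day pools had differed from QSC by less than 0.5, and 86 of them were lower and 57 higher at 28 days. Such a selection favours a 28-day pool away from QSC. That pool lay beyond all QSC pools in every one, against 19.0% below and 19.8% above among all tested genes. None of the 143 passed the test against QSC, and some lay close to it, such as Rbm10 at -0.18. The largest falls were those of Cox6a1, Mustn1, Scand1, Crip1 and Cstb. Cox6a1, a cytochrome oxidase subunit, read 10.66, 10.05 and 10.94 in QSC, 10.64, 11.17 and 10.88 at 2.5 days and 9.09 and 9.16 at 28 days (-1.77 ± 0.33, adjusted p = 0.0146). The LIM protein gene Crip1 read 11.79, 11.58 and 11.72 in QSC, 11.80, 11.90 and 11.74 at 2.5 days and 10.49 and 10.57 at 28 days (-1.28 ± 0.18, adjusted p = 0.00424). Both were low in the 28-day pool alone. Mustn1, a small musculoskeletal nuclear protein, Scand1 and the cathepsin inhibitor Cstb fell by 1.57, 1.40 and 1.28. Cstb had also passed between 2.5 days and QSC (0.45, adjusted p = 0.0299 by limma). With small RNAs and predicted genes left out, the largest rises were those of Tasor, a subunit of the HUSH silencing complex (1.32 ± 0.31, adjusted p = 0.0332), Gca (1.29 ± 0.22), Atp6ap2, an accessory protein of the proton pump (1.28 ± 0.21), Lcmt2 (1.23 ± 0.27) and Nabp1, a single-stranded DNA binding protein (1.17 ± 0.30). Rnu12, the small nuclear RNA U12, rose by as much (1.30 ± 0.21, adjusted p = 0.00895). Tasor, Lcmt2 and Nabp1 did not pass without any 1 of the 2.5-day pools. Tasor and Nabp1 were just inside the 0.5 limit at 2.5 days (-0.4993 and -0.499995 relative to QSC). Atp6ap2 read 10.17, 10.54 and 10.11 in QSC, 9.92, 10.02 and 9.89 at 2.5 days and 11.17 and 11.27 at 28 days (adjusted p = 0.00865).

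Of 8 class II antigen presentation genes tested, 2 fell further between 2.5 and 28 days, none without 2.5-day pool 1 or 2, 1 without pool 3 and 3 without QSC pool 2. Over all tested genes 6.32% were lower at 28 than at 2.5 days. In 7 of the 8 class II genes the 28-day pool lay below all QSC pools, against 19.0% of all tested genes. H2-Aa, an alpha chain of class II, read 8.65, 8.89 and 8.58 in QSC, 8.13, 8.16 and 7.64 at 2.5 days and 6.80 and 6.86 at 28 days (-1.14 ± 0.24, adjusted p = 0.0238). H2-Ab1, its beta chain, read 8.69, 8.55 and 8.94 in QSC, 8.31, 8.34 and 8.10 at 2.5 days and 7.29 and 7.22 at 28 days (fell by 1.00, adjusted p = 0.0217). For both the 3 groups were in the order QSC, 2.5 days, 28 days with no overlap. The invariant chain Cd74 (-0.49 ± 0.35, adjusted p = 0.440) and the protease Ctss (-0.77 ± 0.25, adjusted p = 0.0971) did not pass. Professional antigen presenting cells carry these genes, and the macrophage markers were also low in this pool, as given above. Their part in these falls was not tested.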

How the data were processed

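RNA of sorted satellite cells was read on 21 arrays of 12 pools. The deposited values are log2 signals. The submitters' processing notes name RMA and Affymetrix Expression Console as the authors' tools. Which version was used, and which arrays were normalized together, is not given in the sources used here. Pools were taken from the labels, and technical arrays of a pool were averaged. Of 35556 probesets, 21789 had 1 gene symbol in GEO's platform annotation, 1621 several and 12146 none listed, and the probeset with the highest mean stood for a gene. Of 19938 named genes, 13956 were tested, those above the 30th percentile (6.45) of the mean over all pools.

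Group means of all 8 groups were fitted with limma 3.58.1 (lmFit, eBayes) in R 4.3.3 with no covariate. This left 4 residual and 5.01 prior degrees of freedom, and p-values were Benjamini-Hochberg adjusted with a threshold of 0.05. They rest on the spread among the QSC pools and among the 2.5-day pools, and the 28-day pool adds none. The median SE of a 28 minus 2.5-day difference was 0.22. The number of pools limits the precision. The code was tested on simulated data. Figures used Python 3.11.15 and matplotlib 3.10.9.

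Members and gene lists were chosen with earlier results of these data known. Named genes were the 10 largest rises and falls and up to 4 members of each list with the smallest p. Others were a panel of cell cycle and satellite cell genes and up to 8 kept genes. The rest were up to 5 called genes per direction whose log2 change at 2.5 days was under 0.5. Predicted genes, small RNAs and olfactory receptors were left out, and exceptions are marked. Promoter windows were matched by symbol in RefSeq's GRCm38.p6 table.

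Deviations of same-numbered QSC and 2.5-day pools correlated at r = 0.32 for pool 1 and at -0.03 and -0.03 for pools 2 and 3. Differently numbered pools ran from -0.31 to 0.32. Pairing was thus not consistent, and the main model had no block. Alternatives were other normalizations, filters, probeset averaging, variance settings, pool as a random block, single arrays, wild-type pools alone, the replicate block and each pool left out. Leaving out 3 second arrays that differed alike was added after seeing the data.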

Additional observations from a re-analysis of the deposited data

Results flagged for a closer look

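For 27 of 161 genes named in the text, the 3 pools of 2.5 days and the 28-day pool deviated from QSC in opposite directions, each beyond all QSC pools, and the 28-day difference from QSC had an unadjusted p under 0.05 by limma. None of these 27 differences passed after adjustment over all genes. They were negative for 23 genes and positive for 4. Many of the 161 were named for a large difference or a small p between 28 and 2.5 days, which favours such opposite deviations. The share of all tested genes that meet this rule was not counted, so 27 of 161 is a description only. All values that follow are log2 differences of the 28-day pool from the QSC mean.

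In the cell cycle, the 28-day pool stood at -0.67 for the cytokinesis scaffold gene Anln and at -0.56 for the checkpoint kinase gene Bub1. It stood at -0.70 for Ccna2, -0.82 for Mki67, -0.41 for Kif11 and -0.40 for Kif20a. Histone genes stood at -0.87 for H1f1, -0.82 for H2bc3 and -0.63 for H4c4. The transcription factor gene E2f5 went the other way, at 0.70.

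In respiration, the values were -1.14 for Ndufs8, -1.04 for Uqcr11, -0.74 for Cox6b1 and -0.74 for Atp5j2, and the mitochondrial ribosomal gene Mrpl42 stood at -0.69. Glycolytic genes stood at -0.63 for Eno3 and -0.50 for Ldha. Proteasome genes stood at -0.46 for Psmb3 and -0.73 for Psmb5.

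Among the others, glutathione reductase, Gsr, stood at -0.54, the Ragulator subunit Lamtor4 at -0.65, the lipase inhibitor Angptl4 at -0.52, galectin-3, Lgals3, at -0.70 and the cathepsin inhibitor Cstb at -0.82. The proton pump accessory gene Atp6ap2 stood at 0.95, Nabp1 at 0.67 and the Y-linked gene Eif2s3y at 0.66.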

How the results depend on the processing

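Counts of genes between 28 and 2.5 days (882 lower, 287 higher) ranged, with 1 pool left out, from 392 to 1307 lower and from 44 to 490 higher. Over the same 6 pools, the 2.5-day against QSC counts ran from 837 to 1470 higher and from 344 to 1207 lower, the genes that returned from 335 to 688, and the kept genes from 27 to 74. No gene passed between 28 days and QSC in any of these 6. With arrays centred on their medians 156 genes were higher at 28 days. With all arrays and the pool as a random block (correlation 0.60), 1528 were lower and 826 higher at 28 than at 2.5 days, 1641 lower at 2.5 days than in QSC, and 52 differed between 28 days and QSC. Same-numbered pools did not pair consistently, and with the replicate block 1049 genes were lower and 409 higher at 28 days. Tsc1 turned sign to -0.047 with centred arrays, and ran from -0.063 to 0.19 over the 6 pools left out. Of 161 named genes, 87 kept direction and side of the threshold under every setting that gave a value. Without 2.5-day pool 1, 2 or 3, 34, 35 and 42 calls among them were lost. The single 28-day pool limits every comparison here.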

Other observations

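Among the 31 genes that stayed low at 28 days, several others belong to tendon and connective tissue, a group noticed after the values were seen and so described without a test. Tnmd, the tendon membrane protein tenomodulin, was -1.25 at 2.5 days and -0.98 at 28 days relative to QSC on the log2 scale. The matrix proteoglycan genes Fmod, fibromodulin, and Kera, keratocan, stood at -1.54 and -1.18 at 2.5 days and at -1.23 and -1.06 at 28 days. Thbs4, thrombospondin 4, stood at -1.42 and -1.23, and Angptl7 at -1.30 and -1.05. In these 5 genes, as in all 31, the 28-day pool lay below all QSC pools, which the way the 31 were picked favours.

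Vessel genes outside the marker lists were also among the 31. The receptor Cd93 stood at -1.36 at 2.5 days and -1.22 at 28 days, the phosphatase Ptprb at -1.54 and -1.32, and the junction protein Jam2 at -1.25 and -1.20. Like the tendon genes, they were picked after their values were seen.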
